A study of Homo sapiens with 3 samples.

Results

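The genes described here are the cyclins, the cyclin-dependent kinases (CDKs), the E2F transcription factors with their partners, and the switches that turn the cell cycle from one phase to the next. They were given as a list of 55 genes by name, out of 19775 genes with a probe set of their own on the array. All 55 had at least 1 such probe set, 144 probe sets in all, and none of these was shared with another gene. A filter dropped any probe set that did not exceed 3.47 in at least 1 of the 3 arrays (3.47 being the 20th percentile over the whole table), which kept 141 probe sets of 54 members. The member lost to this filter was CCNA1, the cyclin A of germ cells, with values of 3.45 and 2.98 in the SupB15-MR arrays and 3.45 in the SupB15 array.

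Expression was measured in SupB15-MR cells (2 arrays, labelled biological rep1 and rep2, the second also described as SupB15-MR5) and in SupB15 cells (1 array). SupB15 is a human B-cell precursor acute lymphoblastic leukemia line and drug sensitive. SupB15-MR cells are multidrug resistant descendants of SupB15 cells that outlived mitoxantrone in medium conditioned by HS-5 bone marrow stromal cells and were then kept without drug. Similar cells raised with doxorubicin have a name of their own in the study, SupB15MR-D, while the labels read SupB15-MR and name no drug. The study's legends speak of clones, so each array may stand for a single clone. Both kinds of cells were grown in RPMI1640 with 10% FBS in normal medium. The values are log2 expression values after RMA (robust multi-array average), so that a difference of 1 is a 2-fold difference, and every difference is a SupB15-MR array minus the SupB15 array. Since SupB15 has 1 array, nothing measures how SupB15 cultures vary, and p-values below reflect only the spread between both SupB15-MR arrays. Exact permutation of the group labels allows 3 arrangements here, too few to pass 0.05. Probe sets were therefore described by whether both SupB15-MR arrays lay at least 2-fold on the same side of SupB15.

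The cell cycle is driven by cyclins that come and go and by the CDKs they activate. D cyclins with CDK4 and CDK6 phosphorylate the pocket proteins in G1, which frees E2F factors to switch on S phase genes, among them the E cyclins. Cyclin A then accompanies S phase, and cyclin B with CDK1 brings the cell into mitosis once CDC25 phosphatases have removed the phosphates that WEE1 and PKMYT1 place on CDK1. The ubiquitin ligases SCF and APC/C destroy cyclins and inhibitors so that each step runs one way. CDK6 and cyclin D3 are the usual pair of this family in precursor lymphocytes.

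E2F factors bind a short motif in the promoters of many S phase genes, and genes of G2 and mitosis often carry a CHR element (cell cycle genes homology region) together with CCAAT boxes. Promoter windows of the 250 bases before the start site were read from RefSeq (GRCh38.p14) for 47 of the 55 members, 73 windows in all. The E2F motif was searched as TTTCGCGC or TTTGGCGC, CHR as TTTGAA and the CCAAT box as CCAAT, on both strands. Hits of different motifs did not overlap in the windows printed. The E2F motif was in 6 of the 73 windows (8.22%) and in 0.968% of all 35116 windows of that length. CHR was in 15 (20.5%) against 13.3% of all windows, and CCAAT in 29 (39.7%) against 32.0%. The members with the E2F motif were CDC25A, CDK1, E2F1, E2F2, RBL1 and TFDP1. The 13 members with CHR were CCNB2, CCNC, CCNF, CDC20, CDC25C, CDK1, CKS1B, CKS2, E2F3, FBXO5, FBXW7, FZR1 and TFDP2. The windows of 4 members are printed because they hold these motifs and their expression values went opposite ways: TFDP1 and CCNF had higher values in SupB15-MR cells, and CCNB2 and FBXO5 a lower value on at least 1 probe set. Capitals mark the motifs on either strand.
TFDP1 (chr13:113584503-113584752, plus strand): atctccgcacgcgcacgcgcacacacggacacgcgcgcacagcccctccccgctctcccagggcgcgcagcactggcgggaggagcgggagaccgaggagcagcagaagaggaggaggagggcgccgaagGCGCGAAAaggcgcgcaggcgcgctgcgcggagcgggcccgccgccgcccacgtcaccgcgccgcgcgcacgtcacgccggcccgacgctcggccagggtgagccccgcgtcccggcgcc
CCNF (chr16:2429197-2429446, plus strand): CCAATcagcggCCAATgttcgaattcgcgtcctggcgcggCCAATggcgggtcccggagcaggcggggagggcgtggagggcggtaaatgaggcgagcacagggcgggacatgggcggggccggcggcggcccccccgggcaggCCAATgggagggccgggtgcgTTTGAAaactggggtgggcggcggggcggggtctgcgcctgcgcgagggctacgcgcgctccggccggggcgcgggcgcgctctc
CCNB2 (chr15:59104896-59105145, plus strand): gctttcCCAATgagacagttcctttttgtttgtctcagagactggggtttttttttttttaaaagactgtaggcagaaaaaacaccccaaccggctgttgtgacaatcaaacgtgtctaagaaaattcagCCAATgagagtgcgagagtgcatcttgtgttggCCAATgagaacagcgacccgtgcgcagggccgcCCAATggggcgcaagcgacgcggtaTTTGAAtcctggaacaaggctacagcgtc
FBXO5 (chr6:152983042-152983291, minus strand): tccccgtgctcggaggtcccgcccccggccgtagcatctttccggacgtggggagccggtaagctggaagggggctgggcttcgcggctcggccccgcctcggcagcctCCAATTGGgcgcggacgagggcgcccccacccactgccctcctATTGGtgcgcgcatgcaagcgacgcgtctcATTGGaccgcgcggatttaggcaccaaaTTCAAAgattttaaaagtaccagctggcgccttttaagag
In TFDP1 the capitals are the E2F motif read on the opposite strand, 120 to 113 bases before the start. In the other 3 windows the CHR element lies 85, 29 and 40 bases before the start in CCNF, CCNB2 and FBXO5, with 4 CCAAT boxes each, 2 of which overlap in FBXO5. A match to letters is a description of the window and not a site of binding.

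More member probe sets were higher than lower in SupB15-MR cells, but the balance over genes turned on which probe set stood for a gene. Of the 141 kept probe sets, 42 (29.8%) were at least 2-fold higher in both SupB15-MR arrays, where 18.3% of all 46034 kept probe sets were. A further 14 (9.93%) were at least 2-fold lower in both, against 15.0% of all. The median difference was 0.24 over the member probe sets and 0 over all kept probe sets. The median of all values was 5.27 and 5.28 in the SupB15-MR arrays and 5.08 in the SupB15 array. Centring each array on its median left 34 probe sets higher and 17 lower, beside 15.2% higher and 18.3% lower of all. The member median was then 0.050, but centring lowers every difference by 0.19, also outside the list. The uncentred 0 over all kept probe sets is thus no background for it. With 1 probe set per gene, 11 of 54 members (20.4%) were higher, 5 (9.26%) were lower and 38 were neither, whereas 14.5% of all 17544 genes were higher and 15.1% lower. The median over the member genes was 0.047, beside 0 over all genes. This chosen probe set was the one with the highest mean of the 2 group levels, so that SupB15-MR and SupB15 weigh equally. With the probe set highest in SupB15 instead, 7 members were higher and 8 lower. That choice favours lower differences for any gene, and no shares of all genes are given for it. The list as a whole was not tested. In RNA from bulk cultures, fewer cells in a phase of the cycle and less RNA per cell cannot be told apart.

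**Figure D1:**
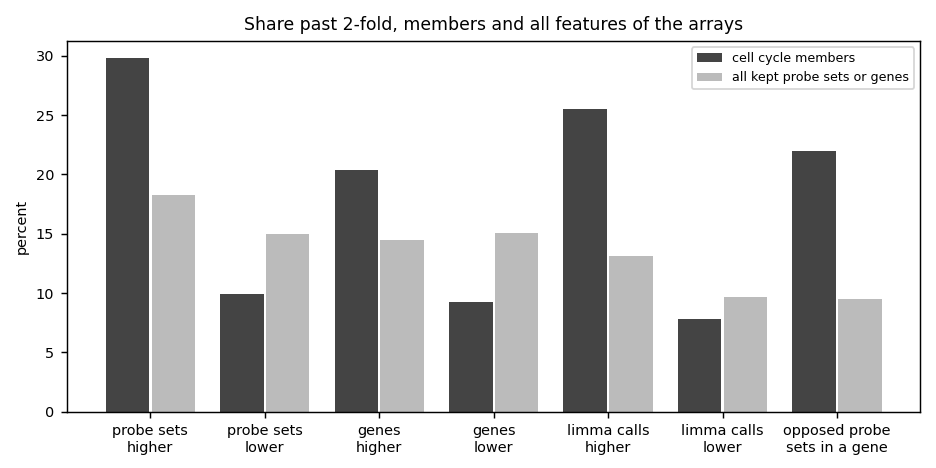
Percent of the cell cycle members (dark bars) and of all kept features (light bars) past 2-fold in SupB15-MR cells, for probe sets, for genes on their chosen probe set, for limma calls, and for genes with probe sets past 2-fold in both directions. Among probe sets, 29.8% of the members were higher against 18.3% of all, and 9.93% were lower against 15.0% of all.

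Both SupB15-MR arrays gave nearly the same values for these genes. The gap between them was at most 0.80 (on a probe set of CDK9), with a median of 0.04, and 47 of the 141 probe sets (33.3%) had identical values in both, as did 39.7% of all kept probe sets; 6 had the same value in all 3 arrays. Over all kept probe sets the arrays correlated with r = 0.99 between the SupB15-MR arrays and with r = 0.78 between each of them and SupB15. A limma fit of all kept probe sets has 1 residual degree of freedom and takes its spread from the SupB15-MR arrays alone, which identical values shrink. It called 36 member probe sets higher (25.5%, with 13.1% of all) and 11 lower (7.80%, with 9.71% of all), 46 of them among the 56 past 2-fold. Its adjusted p-values are given for a few probe sets and measure the gap to SupB15 against the agreement of both SupB15-MR arrays.

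**Figure D2:**
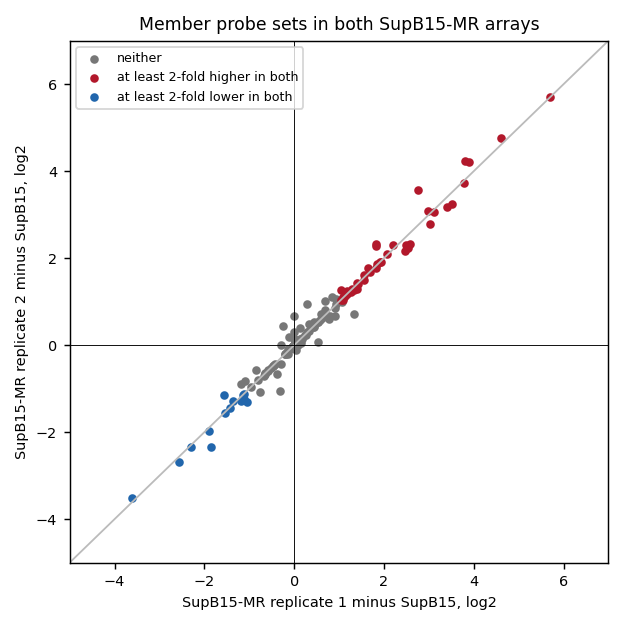
Difference from SupB15 on the log2 scale of each of the 141 kept member probe sets in SupB15-MR replicate 1 (horizontal) and replicate 2 (vertical), with the line of equal values. Both axes subtract the same SupB15 array; no point lies more than 0.80 from equality.

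Other features of the arrays also differed between the groups. The 3 probe sets of the 18S ribosomal RNA control were 6.57 to 7.84 higher in the SupB15-MR arrays, and the 3′ probe set of the ACTB control exceeded its 5′ probe set by 2.59 and 2.43 in the SupB15-MR arrays and by 0.80 in the SupB15 array. The same gap for the GAPDH control was -0.09 and -0.11 in the SupB15-MR arrays and 0.10 in SupB15. Cell type markers were counted on the chosen probe set of each gene. Of 9 kept markers of precursor B cells, none was at least 2-fold higher and 4 were lower (VPREB1, IGLL1, CD24 and EBF1). Most of the other 5 had at least 1 other probe set that was 2-fold higher in both arrays. EBF1 had 1 of 4 probe sets higher and 2 lower. On the chosen probe sets the 9 markers ran between 3.94 and 13.4 in SupB15-MR and between 9.08 and 13.2 in SupB15. Of 5 T cell markers 1 was lower, of 5 myeloid markers 2 were higher, of 5 stromal markers 1 was lower and of 3 erythroid markers none was either, beside 14.5% higher and 15.1% lower of all genes. LYZ, 1 of the 2 higher myeloid markers, was below the filter in SupB15, and with that value set to the filter it differed by 0.81. The myeloid markers, summed on the linear scale, came to 377 and 237 in the SupB15-MR arrays and to 131 in SupB15, and for MPO the log2 values were 8.20 and 7.30 in SupB15-MR against 6.18 in SupB15. The summed stromal markers came to 182 and 172 in SupB15-MR against 441 in SupB15. THY1 had log2 values of 5.15 and 4.69 in SupB15-MR against 8.14 in SupB15, while the mean differences of the other 4 lay between -0.28 and 0.10. The part of any of these in the results below was not tested.

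The genes that open G1 differed little, apart from CDK6. CCND3, the D cyclin of lymphocytes, had log2 values of 12.23 and 12.26 in the SupB15-MR arrays and 12.14 in SupB15. CDK4 had 11.00 and 11.25 in SupB15-MR against 10.87 in SupB15. CCND1 had 3.68 in all 3 arrays, a value that 24.1% of all SupB15 values do not exceed, and the 4 probe sets of CCND2 ran from 3.56 to 4.73 in SupB15-MR and from 3.56 to 4.27 in SupB15. Neither of these D cyclins was thus far above the low end of the array in either kind of cell.

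CDK6, the kinase that D cyclins activate in blood cells, had 7 probe sets that did not move together. On the chosen probe set (224851_at) its values were 11.81 and 11.79 in SupB15-MR and 11.38 in SupB15. Another (224848_at) was lower, with 9.41 and 9.17 in SupB15-MR against 10.47 in SupB15. The other way, 207143_at had 10.15 and 10.10 in SupB15-MR against 6.37 in SupB15, a difference of 3.76 (standard error 0.0319, adjusted p = 0.00450 from limma). Higher as well were 235287_at (11.67 and 11.39 against 8.15), 243000_at (10.16 and 9.87 against 7.63) and 231198_at (7.42 in both against 5.52). CDK6 thus had 4 probe sets higher, 1 lower and 2 neither.

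At the step from G1 into S phase CCNE1 was higher, and the probe sets of CCNE2 went opposite ways. CCNE1, the cyclin E1 that activates CDK2, had values of 9.25 and 9.27 in SupB15-MR and 7.17 in SupB15, a difference of 2.09 or 4.24-fold (standard error 0.0119, adjusted p = 0.00289 from limma). Its other probe set (242105_at) differed by 0.62 in each array. CCNE2, the other E cyclin, was lower on 205034_at, with 6.42 and 6.51 in SupB15-MR against 10.03 in SupB15 (difference -3.57, standard error 0.0671, adjusted p = 0.0110 from limma). Its chosen probe set (211814_s_at) had 9.22 and 9.54 in SupB15-MR against 8.53 in SupB15, a mean difference of 0.85. The kinase itself, CDK2, had the same value of 8.95 in all 3 arrays on its chosen probe set and differed by 0.41 on 211804_s_at. CDC25A, the phosphatase that activates CDK2, had differences between -0.45 and 0.16 over 3 probe sets.

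The E3 ligase subunits that destroy these regulators were higher or did not pass 2-fold. FBXW7, the F-box protein that marks cyclin E and MYC for degradation, was the only member outside cyclin F whose several probe sets were all at least 2-fold higher. Its 4 probe sets had mean differences from 1.42 to 2.90. The largest was on 239494_at, where the SupB15 value of 3.53 lay just above the filter. On the chosen probe set (218751_s_at) the values were 9.78 and 9.75 in SupB15-MR and 7.84 in SupB15 (standard error 0.0266, adjusted p = 0.00782 from limma). The smallest of the 4 was on 222729_at, with 8.46 and 8.51 in SupB15-MR against 7.07 in SupB15. SKP2, the F-box protein that marks p27 for degradation, had 8.53 and 8.59 against 7.35 on 203626_s_at, whereas its other 2 probe sets differed by 0.14 and 0.33. CKS1B, the small adaptor through which SKP2 recognises p27, differed by 0.48.

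Of the E2F factors, E2F3 was higher and E2F8 lower on the chosen probe set. E2F3, an activating factor, had values of 10.53 and 10.28 in SupB15-MR and 7.95 in SupB15 on 203693_s_at, a difference of 2.45 or 5.47-fold (standard error 0.185, adjusted p = 0.0462 from limma). Its other probe set, with differences of 0.94 and 1.06, stopped just short of 2-fold in 1 array. E2F2, another activator, had differences between 0.58 and 0.80 over 3 probe sets, and E2F1 of -0.06 and 0.24 over 2. Among the activators only E2F3 thus passed 2-fold in both arrays; whether they differ from each other was not tested.

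E2F8, an atypical factor that represses E2F targets in S phase, was lower. Its single probe set had 6.81 and 6.77 in SupB15-MR against 9.11 in SupB15, a difference of -2.32 or 4.98-fold lower (standard error 0.0313, adjusted p = 0.00763 from limma). E2F7, the other atypical repressor, had differences of -0.92 and 0.66 on its 2 probe sets. The repressive factors E2F4 and E2F6 had differences of -0.47 and -0.19 on their chosen probe sets, and the other probe set of E2F4 lay just under the threshold at -0.96 in both arrays. E2F5, the remaining repressor that binds pocket proteins, had 5.10 and 5.55 in SupB15-MR and 3.28 in SupB15 on 222051_s_at, a SupB15 value below the filter, and a mean difference of 0.61 on its chosen probe set.

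Both DP partners, without which the classical E2F factors bind DNA poorly, were higher. TFDP1, whose promoter with the E2F motif is printed above, had 11.62 and 11.57 in SupB15-MR against 10.36 in SupB15 (difference 1.24, adjusted p = 0.0192 from limma) and 9.68 and 9.72 against 8.12 on 242939_at; 204147_s_at differed by -0.21. TFDP2 had 10.14 and 10.24 in SupB15-MR against 7.93 in SupB15, a difference of 2.26 (adjusted p = 0.0215 from limma). Its probe set 203589_s_at had 10.85 and 11.00 against 6.24, and 244043_at had 8.20 and 8.71 against 6.38, while 226157_at differed by 0.29. Of the 7 probe sets of the DP genes, 5 were higher and none was lower.

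The pocket proteins p107 and p130, which hold E2F target genes silent, had probe sets in both directions, for p107 only through values below the filter. For RBL2 (p130), 212331_at had 5.81 and 5.67 in SupB15-MR against 8.37 in SupB15, a difference of -2.63 (adjusted p = 0.0236 from limma). The chosen probe set 212332_at had 8.40 and 8.42 against 7.33, a difference of 1.09 (adjusted p = 0.00895 from limma) that was 0.90 after centring. For RBL1 (p107), 1559307_s_at had 7.93 in both SupB15-MR arrays against 6.84 in SupB15, and 1555003_at had 2.46 in both against 4.01. The last pair lies around the filter: 2.46 is below it, the probe set was kept through its SupB15 value alone, and with values set to the filter the difference was -0.54 and no longer 2-fold. Its chosen probe set differed by 0.04, and the remaining one by 0.68. No direction can be given for RBL2 from these probe sets.

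**Figure D3:**
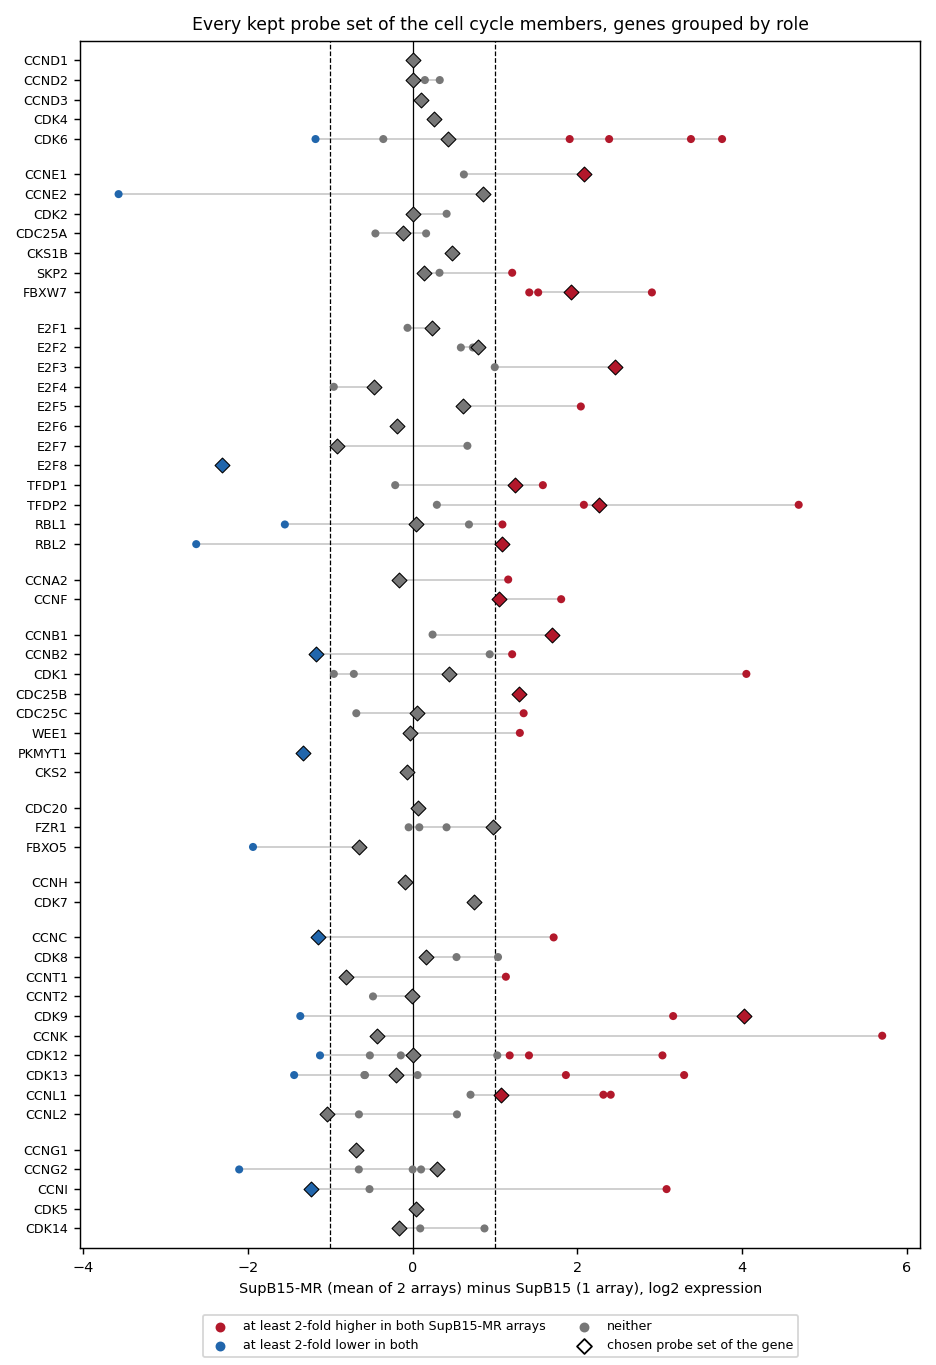
Mean difference of both SupB15-MR arrays from SupB15, on the log2 scale, for every kept probe set of 54 members, with 1 row per gene in the order of its role; diamonds mark the chosen probe set and dashed lines 2-fold. CCNK has the widest spread, with probe sets at 5.70 and -0.44, while CDK2 has its probe sets at 0 and 0.41 and CCND3 at 0.10 and 0.11.

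Of the 3 cyclins of S and G2 phase, CCNF and CCNA2 were higher on at least 1 probe set, and CCNA1 had none above the filter. CCNF, the F-box cyclin that restrains ribonucleotide reductase and whose promoter is printed above, had 9.42 in both SupB15-MR arrays against 8.38 in SupB15 on its chosen probe set, and 8.92 and 8.87 against 7.09 on 204827_s_at. The first difference, 1.04, was the smallest among the probe sets past 2-fold and was 0.85 after centring. CCNA2, the cyclin A of dividing cells, had 10.00 and 10.23 in SupB15-MR against 8.95 in SupB15 on 203418_at, but 9.62 and 9.57 against 9.76 on its chosen probe set.

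On the chosen probe sets CCNB1 was higher and CCNB2 lower, and whether these differences differ was not tested. CCNB1, the main cyclin of mitotic entry, had 10.44 in both SupB15-MR arrays and 8.75 in SupB15, a difference of 1.69, while its other probe set differed by 0.24. CCNB2, with a CHR element and 4 CCAAT boxes in the window shown, had 9.97 and 9.86 in SupB15-MR and 11.09 in SupB15, a difference of -1.17 (standard error 0.0849, adjusted p = 0.0444 from limma). Its probe set 232764_at went the other way, with 6.42 and 6.45 in SupB15-MR against 5.23 in SupB15. Its remaining probe set, 232768_at, had a difference of 0.94 in both arrays.

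CDK1, the mitotic kinase, had 11.13 in both SupB15-MR arrays and 10.69 in SupB15 on its chosen probe set. Its probe sets 203214_x_at and 210559_s_at had mean differences of -0.71 and -0.96, and 231534_at had 8.87 and 9.19 in SupB15-MR against 4.98 in SupB15, a difference of 4.05. Of the phosphatases that activate it, CDC25B had 9.68 in both SupB15-MR arrays against 8.39 in SupB15 on its only probe set. CDC25C differed by 0.05 on its chosen probe set and by 1.35 on 216914_at, with 6.66 and 6.55 against 5.26.

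Of the kinases that hold CDK1 inactive, PKMYT1, which sits on the membranes of the Golgi and ER, was lower. Its only probe set had 7.39 and 7.47 in SupB15-MR against 8.76 in SupB15, a difference of -1.33 or 2.51-fold lower (standard error 0.0584, adjusted p = 0.0271 from limma). WEE1, the nuclear kinase with the same role, differed by -0.03 on its chosen probe set and had 9.28 and 9.22 against 7.95 on 215711_s_at. CKS2, a CDK-binding subunit, differed by -0.07.

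The APC/C activators did not pass 2-fold. CDC20, which activates the APC/C in mitosis, had 10.59 and 10.73 in SupB15-MR and 10.59 in SupB15, and FZR1, which does so in G1, had mean differences between -0.05 and 0.97 over 4 probe sets. FBXO5 (EMI1), the inhibitor that keeps the APC/C off until mitosis, had 7.84 and 7.75 in SupB15-MR against 9.73 in SupB15 on 218875_s_at, a difference of -1.94 (standard error 0.0699, adjusted p = 0.0220 from limma). Its chosen probe set had 9.21 in both SupB15-MR arrays against 9.86 in SupB15. Both of its probe sets were thus lower than in SupB15, one of them by more than 2-fold.

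The CDK-activating kinase, which phosphorylates the other CDKs and RNA polymerase II, differed by less than 2-fold in the pair measured: CDK7 differed by 0.74 and its cyclin CCNH by -0.09. Among the kinases and cyclins that act on transcription and splicing, 38 probe sets of 10 genes included 13 higher and 4 lower, with a median of 0.11; of all kept probe sets 18.3% were higher and 15.0% lower. This group held the largest difference among all member probe sets.

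CCNK, the cyclin of CDK12 and CDK13, accounted for it on 219273_at, with 10.89 and 10.92 in SupB15-MR against 5.20 in SupB15 (5.70, standard error 0.0207, adjusted p = 0.00178 from limma). Its chosen probe set (225824_at) had 9.26 in both SupB15-MR arrays and 9.70 in SupB15. CDK9, the kinase of the elongation factor P-TEFb, had 10.63 and 11.07 in SupB15-MR against 6.83 in SupB15 on the chosen probe set 236023_at and 7.64 and 8.44 against 4.88 on 228901_at. Against these, 203198_at had 6.07 and 6.49 in SupB15-MR against 7.64 in SupB15. The difference of 4.02 on the chosen probe set did not pass limma (adjusted p = 0.0511), and the gene was lower by 1.36 on the probe set with the highest SupB15 value.

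The partners of CDK9 differed less. CCNT1 had 8.47 and 8.46 in SupB15-MR against 9.27 in SupB15 on its chosen probe set, a difference of -0.80, and 7.63 in both against 6.50 on 206967_at. CCNT2 had differences between -0.48 and 0 over 4 probe sets. CDK12, which phosphorylates RNA polymerase II on long genes of DNA repair, had 8 probe sets with differences from -1.13 to 3.03. On the highest, 219226_at, the values were 9.49 and 9.59 in SupB15-MR against 6.51 in SupB15. On the lowest, 225691_at, they were 6.12 in both SupB15-MR arrays against 7.25 in SupB15. The chosen one differed by less than 0.01, and 3 were higher, 1 lower and 4 neither. CDK13, its close relative, ran from -1.44 (210965_x_at, 4.84 in both SupB15-MR arrays against 6.28 in SupB15) to 3.30 (214287_s_at, 7.81 and 7.59 against 4.40), with 2 of 7 higher and 1 lower.

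In the Mediator kinase module, CCNC had 9.14 in both SupB15-MR arrays and 10.29 in SupB15 on its chosen probe set and 6.42 and 6.53 against 4.76 on 1569126_at. CDK8, its kinase, had mean differences of 0.16 to 1.04 over 3 probe sets, and the highest (1553113_s_at) had 1.07 in replicate 1 and fell just short of 2-fold in replicate 2. Of the L cyclins, which act in splicing, CCNL1 was higher on 3 of 4 probe sets. Its chosen probe set had 9.38 and 9.33 in SupB15-MR against 8.28 in SupB15, and 241495_at had 7.52 and 7.32 against 5.02. CCNL2 had 8.12 and 8.41 against 9.30 on its chosen probe set, past 2-fold in 1 array only; after centring it was lower in both, and CCNL1 on its chosen probe set was no longer 2-fold higher.

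**Figure D4:**
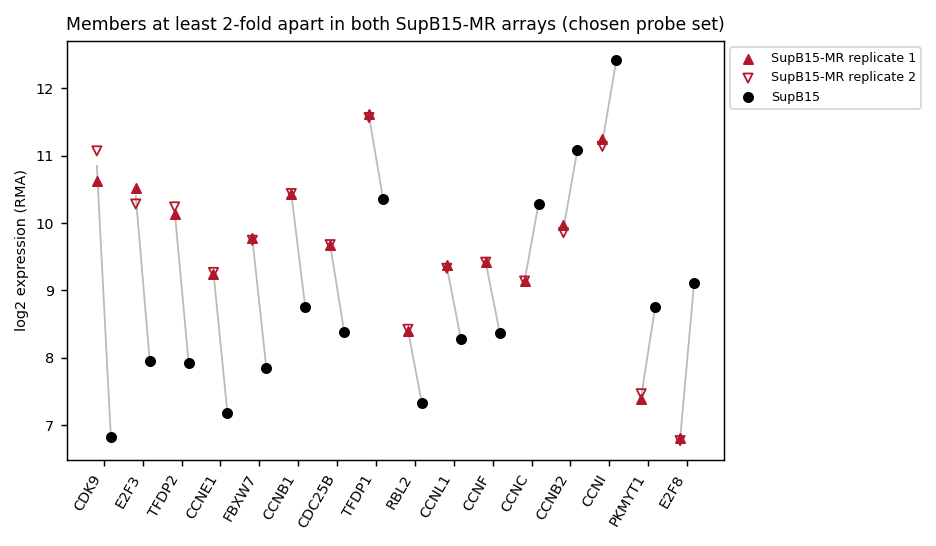
Log2 expression on the chosen probe set in both SupB15-MR arrays (triangles, left of each pair) and in SupB15 (filled circle, right) for the 16 members past 2-fold, ordered by their difference. The 11 genes on the left, CDK9 to CCNF, are higher in SupB15-MR and the 5 on the right, CCNC to E2F8, are lower.

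Among the cyclins and CDKs with other roles, CCNG2, a cyclin of arrested cells, had 7.10 and 6.62 in SupB15-MR against 8.97 in SupB15 on 202770_s_at, a difference of -2.11, while its other 4 probe sets differed by between -0.65 and 0.30. CCNG1, a p53 target, differed by -0.69. CCNI had 11.24 and 11.14 in SupB15-MR against 12.42 in SupB15 on its chosen probe set (-1.23, adjusted p = 0.0393 from limma), -0.52 on 208655_at, and 9.55 and 9.51 against 6.45 on 227299_at. CDK5, the kinase of postmitotic neurons, differed by 0.04, and CDK14 by between -0.17 and 0.87.

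Disagreement between probe sets of one gene was common among the members. Of the 41 members with several kept probe sets, 9 had at least 1 probe set 2-fold higher and another 2-fold lower in both SupB15-MR arrays (22.0%), where 9.46% of all such genes did; the members had 3.12 kept probe sets on average and all such genes 2.98. These 9 were CDK6, RBL1, RBL2, CCNB2, CCNC, CDK9, CDK12, CDK13 and CCNI. RBL1 counted only through the probe set below the filter in SupB15-MR; with values set to the filter, 8 of the 41 members (19.5%) and 9.05% of all such genes had opposed probe sets. Over all their probe sets, 17 members had only higher ones past 2-fold, 5 only lower ones (CCNE2, E2F8, PKMYT1, FBXO5 and CCNG2) and 23 none. The shares of all genes with these patterns were not computed, so these 3 counts cannot be read as particular to the members. Near the threshold, the smallest differences inside it were 1.04 for CCNF and 1.05 for CCNL1 and CCNA2, and just outside it lay CDK8, which had 1.07 in replicate 1 and just under 1 in replicate 2, then E2F4 with -0.96 and E2F3 with 0.94.

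In the wider cell cycle gene lists most genes did not pass 2-fold. Of 19 S phase genes driven by E2F, none was at least 2-fold higher and 2 were lower on the chosen probe set. These were MCM5, a subunit of the replicative helicase, with 8.06 and 8.35 in SupB15-MR against 10.06 in SupB15, and PCNA, the sliding clamp, with 11.45 and 11.10 against 12.49. However, several others of the 19 had a further probe set 2-fold higher in both arrays, and some had 1 that was 2-fold lower. MCM5 was lower on only 1 of its 2 probe sets. Of 20 genes of G2 and M phase, 2 were higher on the chosen probe set (MKI67 by 1.68 and BUB1 by 1.25) and 2 were lower. However, 1 of the 4 probe sets of MKI67 and 1 of the 5 of BUB1 were 2-fold lower in both arrays. The first of the 2 lower genes was MYBL2, which activates CHR genes, with 6.99 and 7.05 in SupB15-MR against 9.18 in SupB15. The second was UBE2C, the APC/C ubiquitin carrier, with 10.09 and 10.08 against 11.69. The median difference was -0.04 for the S phase list and -0.10 for the G2 and M list, and 0 for all genes.

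On the chosen probe sets, none of the 5 genes of the MuvB core, which joins p107 and p130 in the repressive DREAM complex, passed 2-fold in both arrays. However, 1 of these genes had 6 probe sets, of which 1 was 2-fold higher and 1 was 2-fold lower in both. Of 11 APC/C subunits, 3 were higher and 2 lower, the largest difference being that of CDC27 with 10.21 and 10.39 in SupB15-MR against 6.01 in SupB15, although 1 of its 4 probe sets was 2-fold lower. Of 7 genes in the list of CDK inhibitors, CDKN3 was higher by 1.11 and CDKN1B (p27) was lower, with 7.48 and 6.81 in SupB15-MR against 9.63 in SupB15. Another gene of the list had 2 of its 5 probe sets 2-fold higher in both arrays. The median difference of that list was 0.79, that of a gene with values below the median of each array. It had 5.06 and 5.02 in SupB15-MR against 4.24 in SupB15. The median level of the list was 5.76 and 5.72 in SupB15-MR against 6.67 in SupB15. The shares of all genes past 2-fold, 14.5% higher and 15.1% lower, are the values to read these counts against.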

How the data were processed

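Total RNA from SupB15-MR cells (2 cultures by their labels) and SupB15 cells (1) was labelled with the NuGEN Ovation Biotin system and hybridized to Affymetrix arrays by the authors, who normalised and summarised the probes with RMA in apt-probeset-summarize. The deposited table gives log2 values of 54675 probe sets in 3 arrays. The version and the genome build of the probe design are not given in the sources used here. Precision is limited by the number of arrays.

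Genes were taken from the platform annotation (41097 probe sets with 1 gene, 1801 with several, 11777 with none), with symbols updated by gene ID through RefSeq. The filter (3.47, the 20th percentile) removed 8641 probe sets. limma 3.58.1 in R 4.3.3 was fitted to the 46034 others, with empirical Bayes moderation and Benjamini-Hochberg adjustment, and called at an adjusted p of at most 0.05 and 2-fold; identical SupB15-MR values had a residual spread of exactly 0 before moderation. The fit was tested on simulated data. Whole tables were handled in Python 3.11.15 with pandas 2.3.3. Values in all 3 arrays were given for members 2-fold apart on the chosen probe set or with opposed probe sets, and for other single probe sets past 2-fold, chosen after their values were seen. At most 4 genes per further list were named, those with the largest differences past 2-fold. The members and lists were chosen with earlier results of these data known. Alternatives covered scaling, filter, fold, probe set choice, prior and ANOVA; leaving out probe sets with identical values, and opposed probe sets with low values set to the filter, were added after seeing the data.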

Additional observations from a re-analysis of the deposited data

How the results depend on the processing

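Counts of member probe sets kept within 1.5 times of 42 higher and 14 lower under centring, no filter, a floor at the filter and without identical values (35 higher and 10 lower). With a 1.5-fold threshold 24 were lower, with a 4-fold threshold 17 were higher and 3 lower, and without probe sets that carry a letter before _at 9 were lower, since fewer were counted. Leaving out a SupB15-MR replicate gave 44 to 45 higher and 16 lower, 11 to 13 genes higher and 6 lower, and medians of 0.18 to 0.30. With the probe set highest in SupB15, 7 genes were higher and 8 lower, and at 1.5-fold 10 genes were lower. Shares over all features are given only for centring and for probe sets without a letter before _at. The counts at the other settings thus cannot be read as particular to the members. Centring moved the median difference of the member probe sets to 0.050, by lowering every difference on the arrays by 0.19. A 1-way ANOVA of the 3 arrays called 0 higher and 0 lower of 94 member probe sets that differ between the SupB15-MR arrays (34 at an unadjusted p of 0.05 and 2-fold). limma called 36 and 11, but over all 141 kept member probe sets, including those with identical values that the ANOVA leaves out. The ANOVA also takes the spread of each probe set without moderation. The part of each in the gap was not tested.

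Directions of single genes turned with the probe set. RBL2 had -2.63 on the probe set highest in SupB15 and -0.77 as the mean over its probe sets, and CDK9 had -1.36 on its probe set highest in SupB15. As means over all probe sets, CCNB2 had 0.32, CCNC 0.28 and CCNI 0.44. The cause was not tested. limma cannot be fitted without a SupB15-MR replicate, as no residual degree of freedom is left, and the SupB15 array cannot be left out. No paired analysis was possible because SupB15 has 1 array with no replicate number.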

Other observations

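The letters at the end of a probe set name tell how its probes were chosen: a name ending in a digit and _at was designed to match 1 transcript, and a letter such as s, x or a marks probes shared between transcripts. Among the member probe sets without such a letter, 28 of 78 (35.9%) were at least 2-fold higher in both SupB15-MR arrays and 9 (11.5%) lower. Among those with a letter, 14 of 63 (22.2%) were higher and 5 (7.94%) lower. Over all kept probe sets the shares higher were 17.2% without a letter and 20.3% with one. The shares lower were 14.8% and 15.3%. The difference between the kinds was not tested.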
